A study of Mus musculus with 57 samples.

Results

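Common lymphoid progenitors (CLP) are bone marrow cells that have turned towards B, T, natural killer and dendritic cell fates. The series holds 57 libraries, and the 8 with the CLP tissue label, all of batch A, are the subject here: 4 from aPAPPA mouse pools (mouse_pool_id 2, 4, 6 and 8) and 4 from control mouse pools (1, 3, 5 and 7). All donors were male C57BL/6 mice, 8 weeks old, that received an antibody for 4 weeks. The aPAPPA pools received an antibody against PAPP-A, and the control pools received a control antibody. A pool combines several animals, the number of mice in it and the surface markers of the sort are not given in the labels, and no genetic alteration is labelled in either group. The comparison asks which transcripts of CLP differ after the antibody.

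PAPP-A, the product of Pappa, is a secreted metalloprotease that cleaves insulin-like growth factor (IGF) binding proteins and so frees IGF to act on its receptor. CLP depend on IL-7 and FLT3 signals, switch on the recombination enzymes RAG1 and RAG2 and the nucleotide-adding enzyme TdT (encoded by Dntt), and pass under the factors E2A and EBF1 into the B lineage. IGF signalling is known to act on B cell precursors, with stromal cells of the marrow as a local source of the ligand.

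Values are CPM, counts scaled to a common library size with edgeR's TMM factors, and come from the estimated counts per gene. The aPAPPA libraries held 4100456, 8279964, 4132268 and 7217183 counts in pools 2, 4, 6 and 8, and the control libraries held 3850000, 8268213, 587316 and 1121453 counts in pools 1, 3, 5 and 7. Mean log2 totals were 22.43 ± 0.53 in aPAPPA and 21.03 ± 1.72 in control (SD, n = 4 each), an exact two-sided permutation p of 0.2 where 0.0286 is the smallest the design allows. Before TMM scaling, a count of 0 therefore allows up to 5.11 CPM in control pool 5 and 2.68 CPM in control pool 7, but at most 0.732 CPM in any aPAPPA library. These floors use 3 counts over the unscaled total and, like every interval from counts, cover counting error only. The p-values below measure the spread between pools.

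The libraries of pools 1 and 2, one of each group, stood apart from the other 6. The rank correlation over genes was 0.93 to 0.98 among the 6 libraries of pools 3 to 8, 0.71 to 0.84 between those and pools 1 and 2, and 0.89 between pools 1 and 2. Transcripts that are ribosomal RNA or resemble it took 1.96%, 0.456%, 0.34% and 1.07% of counts in aPAPPA pools 2, 4, 6 and 8, against 7.79%, 0.27%, 0.413% and 0.657% in control pools 1, 3, 5 and 7 (exact permutation p = 0.857). Control pool 1 was the highest and aPAPPA pool 2 the next. These shares depend on the list. With 4 further rRNA-like genes added they were 4.46%, 0.72%, 0.623% and 2.455% in aPAPPA pools 2, 4, 6 and 8. In control pools 1, 3, 5 and 7 they were then 19.5%, 0.412%, 0.76% and 1.44%. Genes with under 1000 exonic bases read 0.86 and 1.03 log2 units above the mean of pools 3 to 8 in aPAPPA pool 2 and control pool 1, and 0.50 above it in aPAPPA pool 8. Over genes of all lengths, this deviation had a rank correlation with exonic length of -0.42 in aPAPPA pool 8 and 0.34 in aPAPPA pool 4. It was -0.15 in aPAPPA pool 2 and control pool 1, and -0.16 to 0.20 in the remaining libraries. The set of pools 3 to 8 thus keeps the libraries furthest from 0 in this measure. Several lists of other marrow cells read higher in aPAPPA pool 2 and control pool 1 than in the rest, and the cause was not tested. Mature B cell genes instead read lowest there, at 539 and 409 CPM. A list of 20 marrow stroma and endothelium genes summed to 1333 CPM in aPAPPA pool 2 and 132 to 196 CPM in the other aPAPPA pools, and to 1158 CPM in control pool 1 and 140 to 191 CPM in the other control pools. The collagen gene Col1a1 had 454 CPM in aPAPPA pool 2 and 399 CPM in control pool 1, and at most 3.26 CPM in the remaining libraries. The osteocalcin gene Bglap had 75.1 CPM in aPAPPA pool 2, 156 CPM in control pool 1, and no count in the remaining libraries. Neutrophil genes summed to 14970 CPM in aPAPPA pool 2 and 683 to 2907 CPM in the other aPAPPA pools, and to 14310 CPM in control pool 1 and 688 to 1905 CPM in the other control pools. Treatment differences are therefore given for all 8 libraries and, for most genes and lists below, also for the 6 of pools 3 to 8.

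**Figure D1:**
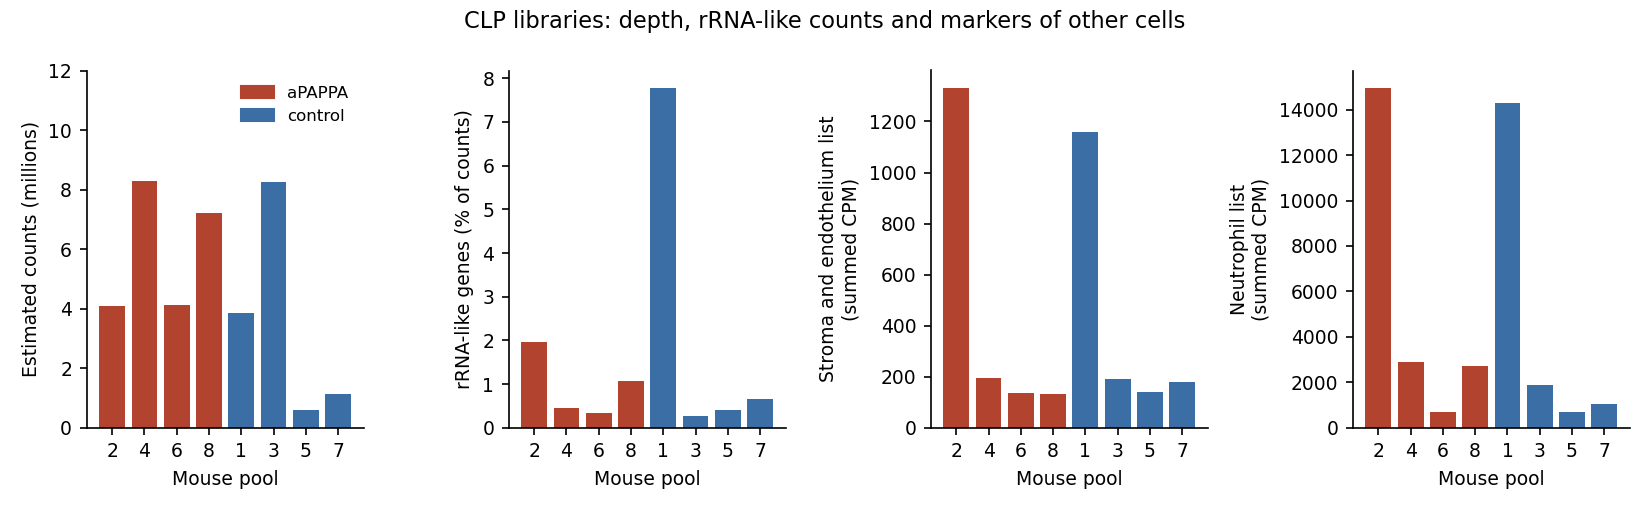
Estimated counts per library, percent of counts in rRNA-like genes, and summed CPM of the marrow stroma and endothelium list and of the neutrophil list, by mouse pool (bars, 1 library each; aPAPPA red, control blue). aPAPPA pool 2 and control pool 1 carry the highest bars of the last 2 panels, at 1333 and 1158 CPM for stroma and endothelium genes, and control pools 5 and 7 are the shallowest.

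Control CLP carried the genes that define the population. The edgeR quasi-likelihood test with Benjamini-Hochberg adjustment set the 4 control CLP libraries against the 11 control libraries of haematopoietic stem cells (HSC), granulocyte-monocyte progenitors (GMP) and megakaryocyte-erythroid progenitors (MEP) from the same batch. The test takes CLP minus the average of the HSC, GMP and MEP levels on the log2 scale, so higher does not mean higher than each. It called 17 of the 20 CLP defining genes higher in CLP, where 17.3% of all 16084 genes tested were higher, and the list's median log2 difference was 3.15 against -0.01 over all genes. Kit, the stem cell factor receptor, which CLP carry at low level, was the single member lower in CLP, by a log2 difference of -1.56 (adjusted p = 1.59e-04). Dntt was 10.19 log2 units higher (adjusted p = 1.41e-09), Rag1 9.57 (adjusted p = 3.96e-10) and Il7r, the IL-7 receptor alpha chain, 8.46 (adjusted p = 6.58e-10). Control means of Dntt, scaled over all progenitor libraries, were 1676 CPM in CLP, 29.9 CPM in MEP, 0.49 CPM in GMP and 0.30 CPM in HSC. Early B genes were also high: 26 of 28 were called higher, among them Cd79a, a chain of the B cell receptor complex, at 7.72, and Pax5, the B lineage factor, at 7.74. Dendritic cell genes were higher for 17 of 17 tested, on a list that shares Flt3, Ly6d and Ccr9 with the CLP defining genes. Myeloid genes were higher too: 17 of 20 neutrophil genes, 13 of 17 monocyte and macrophage genes, and 17 of 20 genes of primary granules and GMP. These calls are against the average of HSC, GMP and MEP, and CLP against GMP alone was not tested. The neutrophil sums were high in control pool 1, but those of primary granule and GMP genes were not tied to pools 1 and 2. They were 7792, 9705, 9140 and 16660 CPM in aPAPPA pools 2, 4, 6 and 8, against 7851, 12010, 17020 and 11280 CPM in control pools 1, 3, 5 and 7, lowest in pools 2 and 1. Without control pool 1 the test called 2262 genes in either direction in place of 4379, and 17 of the 20 CLP defining genes were still called higher. In bulk RNA, more cells of a type and more RNA per cell cannot be told apart.

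No transcript passed the test for the antibody. Of 12520 genes tested with edgeR's quasi-likelihood test in the 8 CLP libraries, 0 reached an adjusted p below 0.05 (0%), and every adjusted p was 1. An unadjusted p below 0.05 was reached by 29 genes (0.232%), the lowest being 0.0185. DESeq2 called 0 genes with 108 (0.353%) at an unadjusted p below 0.05, and limma's voom with quality weights called 0 with 380 (3.04%). An edgeR fit joint with HSC, GMP and MEP called 0 in CLP with 807 (4.45%). In the 6 libraries of pools 3 to 8, 0 of 13128 genes were called (0%) and 74 (0.564%) had an unadjusted p below 0.05. All these shares lie below the 0.05 that a calibrated test gives for unchanged genes. The edgeR fits within CLP, at 0.232% and 0.564%, were thus conservative, and their 0 calls do not show that no transcript differed. The cause was not tested. The median gene differed by 0.02 log2 units in both edgeR fits within CLP, and 6666 genes were higher and 5854 lower in aPAPPA than in control over the 8 libraries. The groups did not overlap for 49 genes with aPAPPA above (0.391%) and 35 with aPAPPA below (0.28%), together 0.671% of genes.

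The width of the intervals gives the precision of these edgeR fits within CLP. The median 95% confidence interval reached 1.51 log2 units to either side of the estimate for genes of 1 to 10 CPM, 0.72 for 10 to 100 CPM, 0.58 for 100 to 1000 CPM and 0.80 above 1000 CPM. In pools 3 to 8 these reaches were 1.40, 0.56, 0.43 and 0.53. The common biological coefficient of variation was 0.522 over 8 libraries and 0.271 over 6. These reaches are medians without adjustment for the number of genes, so they give the precision of a typical gene and not a limit of detection.

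**Figure D2:**
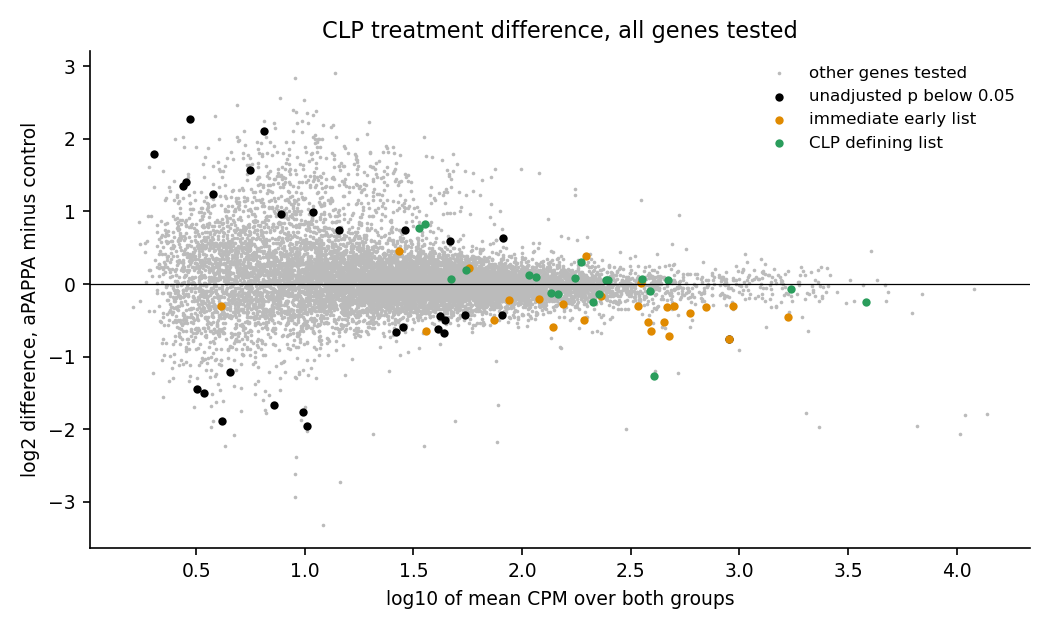
Log2 difference, aPAPPA minus control, against log10 of mean CPM for the 12520 genes tested in the 8 CLP libraries (points). The 29 genes with an unadjusted p below 0.05 (black) lie on both sides of 0, CLP defining genes (green) scatter around 0, and 21 of 25 immediate early genes (orange) lie below it.

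Genes that define CLP kept overlapping ranges in the 2 groups. None of the 20 CLP defining genes was called (0% of all genes), with 12 higher and 8 lower in aPAPPA and a median of 0.06 against 0.02 over all genes. Over the 6 libraries, 9 were higher and 11 lower, with a median of -0.02. Dntt, on chromosome 19 at 41029275 to 41059525 of GRCm38, had 2004, 1304, 2015 and 1409 CPM in aPAPPA pools 2, 4, 6 and 8, against 2658, 1429, 1700 and 1265 CPM in control pools 1, 3, 5 and 7. The ranges overlapped, with the highest value in control pool 1. The log2 difference was -0.07 (95% interval -0.73 to 0.60), and 0.12 (-0.39 to 0.63) in pools 3 to 8.

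Il7r had 91.0, 99.5, 174 and 86.0 CPM in aPAPPA pools 2, 4, 6 and 8, against 108, 82.0, 101 and 121 CPM in control pools 1, 3, 5 and 7. aPAPPA pool 6 was the highest of all and the other values were mixed, for a log2 difference of 0.13 (-0.46 to 0.73) over 8 libraries and 0.27 (-0.33 to 0.87) over 6. Flt3, the receptor for FLT3 ligand that marks lymphoid-primed progenitors, had 362, 517, 396 and 182 CPM in aPAPPA pools, against 275, 481, 344 and 287 CPM in control pools in the same pool order, a difference of 0.07 (-0.67 to 0.81) over 8 and -0.02 (-0.79 to 0.76) over 6. The lowest value of Flt3 was in aPAPPA pool 8. Ebf1, the factor that commits cells to the B lineage, had 309, 132, 256 and 291 CPM in aPAPPA pools, against 314, 144, 256 and 241 CPM in control pools, a difference of 0.05 (-0.67 to 0.78) over 8 and 0.12 (-0.56 to 0.80) over 6. Each group held 1 low library for Ebf1, aPAPPA pool 4 and control pool 3.

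The estimates furthest from 0 in this list followed pools 1 and 2. Ly6d, whose surface product separates B-primed CLP from the others, had 592, 70.4, 182 and 115 CPM in aPAPPA pools 2, 4, 6 and 8, against 1826, 105, 228 and 123 CPM in control pools 1, 3, 5 and 7. The difference was -1.26 (-3.64 to 1.12) over 8 libraries and -0.26 (-1.13 to 0.61) over 6. Ccr9, a homing receptor for thymus and gut that plasmacytoid dendritic cells also carry, had 144, 16.3, 11.2 and 13.7 CPM in aPAPPA pools, against 60.6, 17.4, 13.1 and 10.0 CPM in control pools. Its difference was 0.82 (-1.35 to 2.99) over 8 libraries and -0.02 (-0.71 to 0.66) over 6. Both genes were several times higher in pools 1 and 2 than in the remaining pools of either group, as were the stroma and neutrophil lists. The part of other cells in these values was not tested.

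Among the enzymes of V(D)J recombination, Rag2 had the largest difference. It had 35.3, 34.4, 47.4 and 50.9 CPM in aPAPPA pools 2, 4, 6 and 8, against 11.2, 20.7, 34.3 and 35.01 CPM in control pools 1, 3, 5 and 7. The groups touched without separating: the lowest aPAPPA value lay just under the highest control value. The log2 difference was 0.77 (-0.04 to 1.59, adjusted p = 1, edgeR) over 8 libraries and 0.66 (0.06 to 1.25, adjusted p = 1) over 6. Rag1, its partner in the recombinase, had 45.5, 113, 212 and 106 CPM in aPAPPA pools, against 84.0, 89.5, 124 and 155 CPM in control pools, a difference of 0.09 (-0.86 to 1.03) over 8 and 0.26 (-0.39 to 0.91) over 6. The Rag1 ranges overlapped throughout, so the 2 neighbouring genes on chromosome 2 did not show the same order of libraries.

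The recombination and end joining list had 16 members tested, of which 0 were called, 11 were higher and 5 lower in aPAPPA, with a median of 0.07. Without pools 1 and 2, 12 were higher, with a median of 0.11. Over 8 libraries, of the DNA-dependent protein kinase, Xrcc6 (Ku70) was at 0.06 (-0.44 to 0.55), Xrcc5 (Ku80) at -0.30 (-1.62 to 1.02) and Prkdc, the catalytic subunit, at 0.05 (-0.56 to 0.66). The DNA-bending proteins that assist RAG, Hmgb1 and Hmgb2, differed by 0.06 (-0.40 to 0.51) and 0.12 (-0.41 to 0.65). Early B genes gave 0 calls of 27 tested with a median of 0.08, 17 of them higher, and T, natural killer and innate lymphoid genes gave 0 of 13 with a median of 0.08. In pools 3 to 8 these medians were 0.08, with 18 of 27 higher, and -0.02, with 6 of 12 higher. Id2, an inhibitor of E proteins that favours innate lymphoid and dendritic fates, had 79.7, 32.5, 32.8 and 26.8 CPM in aPAPPA pools, against 32.3, 27.3, 17.9 and 10.8 CPM in control pools. aPAPPA pool 2 was far above the rest, and the difference was 0.92 (-0.08 to 1.91) over 8 libraries and 0.61 (-0.05 to 1.28) over 6.

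**Figure D3:**
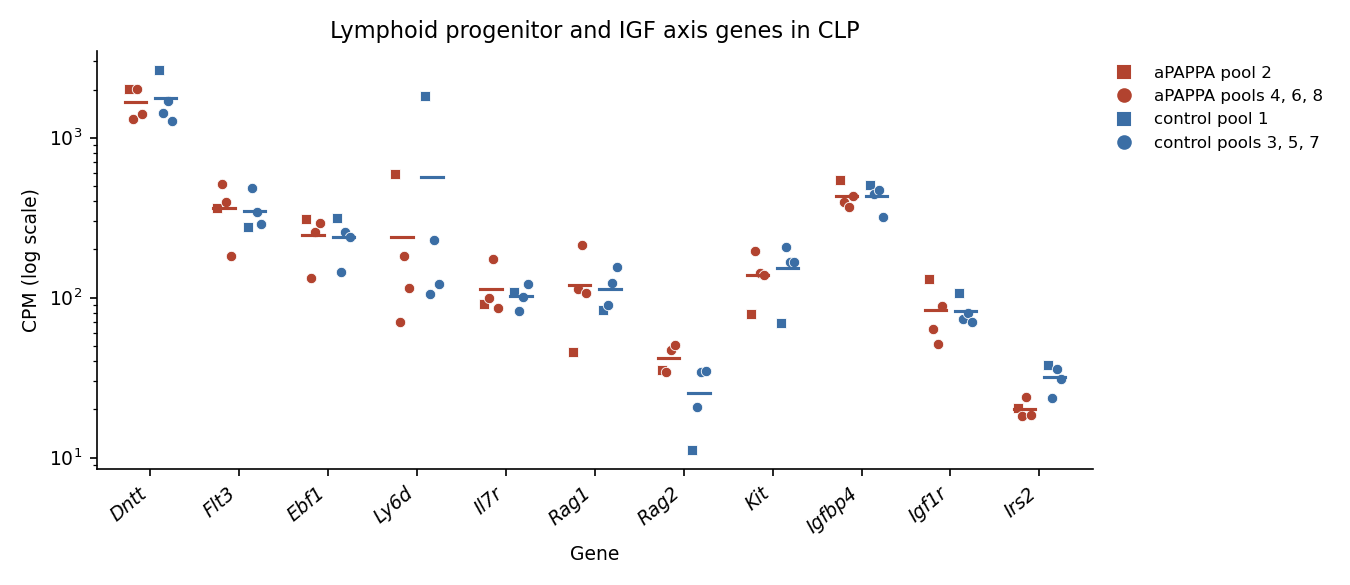
CPM on a log axis for 8 CLP defining genes and 3 genes of the IGF axis in each CLP library (squares, pools 2 and 1; circles, the other pools; short lines, group means; aPAPPA red and left, control blue and right). The groups overlap for all 11 genes, and Irs2 and Rag2 come closest to separating.

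Of the IGF axis, 8 of 24 listed genes were expressed enough to be tested within CLP, and 0 of them were called. The receptors were measured in every library. Igf1r, the type 1 IGF receptor, had 131, 63.3, 51.7 and 88.1 CPM in aPAPPA pools 2, 4, 6 and 8, against 107, 74.0, 79.9 and 70.9 CPM in control pools 1, 3, 5 and 7. Its highest values were in pools 2 and 1, and the difference was 0.00 (-0.67 to 0.68) over 8 libraries and -0.12 (-0.61 to 0.36) over 6. The insulin receptor gene Insr differed by -0.06 (-0.57 to 0.45) over 8 and -0.05 (-0.56 to 0.46) over 6. Igf2r, which clears IGF2, differed by 0.24 (-0.90 to 1.38) over 8 and 0.14 (-0.62 to 0.89) over 6.

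Igfbp4 encodes a binding protein that PAPP-A cleaves. It had 545, 395, 367 and 430 CPM in aPAPPA pools, against 507, 443, 468 and 320 CPM in control pools. The ranges overlapped and the difference was -0.00 (-0.49 to 0.49) over 8 libraries and -0.03 (-0.46 to 0.40) over 6. Igf2bp3, an RNA-binding protein of fetal-type progenitors, had 6.21, 2.29, 3.37 and 7.36 CPM in aPAPPA pools, against 0, 0.542, 3.26 and 4.17 CPM in control pools, a difference of 1.65 (-0.65 to 3.95) over 8 and 1.19 (-0.76 to 3.13) over 6. Its groups overlapped through control pools 5 and 7, the shallow libraries.

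Irs2, an adaptor that carries signals from the insulin and IGF receptors and is induced when FOXO factors are active, had the smallest p of the axis. It had 20.3, 18.1, 24.0 and 18.5 CPM in aPAPPA pools 2, 4, 6 and 8, against 37.9, 23.7, 35.9 and 30.8 CPM in control pools 1, 3, 5 and 7. Only aPAPPA pool 6 and control pool 3 overlapped, by a fraction of a CPM. The difference was -0.66 (-1.19 to -0.13, adjusted p = 1, edgeR) over 8 libraries and -0.51 (-1.06 to 0.04) over 6. Over the FOXO and PI3K feedback list, 0 of 27 genes were called and the median was -0.06, and in pools 3 to 8 it was -0.01 over 28 genes.

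Pappa itself, on chromosome 4 at 65124174 to 65357509, was too low to be tested within CLP. It had 28.5, 0.936, 0 and 0.289 CPM in aPAPPA pools 2, 4, 6 and 8, against 0.372, 0.433, 0 and 0 CPM in control pools 1, 3, 5 and 7. The value of aPAPPA pool 2 stands alone, in the library with the most counts on stroma and endothelium genes. Control pool 1, with nearly as many counts on that list, had 0.372 CPM. The joint fit with HSC, GMP and MEP did test Pappa and called it in none of these populations. Its log2 difference there was 4.30 ± 1.64 in CLP, a value that includes aPAPPA pool 2. It was 4.90 ± 2.06 in HSC, 2.33 ± 1.46 in GMP and -2.16 ± 1.72 in MEP (SE). The antibody binds the protein, so this RNA does not check the labels. The ligand genes Igf1 and Igf2 were also under the filter; Igf1 had 13.8 CPM in aPAPPA pool 2 and 0.449 to 2.39 CPM in the other aPAPPA pools, against 6.32 CPM in control pool 1 and 0 to 1.63 CPM in the other control pools. Cxcl12, the chemokine of marrow stroma, had 91.5 CPM in aPAPPA pool 2 and 7.06 CPM in control pool 1.

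The genes with the smallest unadjusted p are given as values, since none was called. Trmt1l, a relative of a tRNA methyltransferase, had 70.6, 53.4, 52.1 and 49.3 CPM in aPAPPA pools 2, 4, 6 and 8, against 40.1, 44.2, 30.99 and 32.5 CPM in control pools 1, 3, 5 and 7. All aPAPPA values lay above all control values, and the difference was 0.59 (0.12 to 1.06, adjusted p = 1, edgeR). Jmjd4, a JmjC-domain hydroxylase, had 19.8, 15.2, 11.9 and 11.5 CPM in aPAPPA pools, against 9.29, 7.80, 4.89 and 6.67 CPM in control pools, again without overlap, a difference of 0.99 (0.17 to 1.81). In pools 3 to 8 both genes were also separated, by 0.48 (0.03 to 0.94) and 0.91 (0.17 to 1.65), where 2.61% of all genes had aPAPPA above without overlap.

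Hmox1, the inducible heme oxygenase, had 19.8, 13.1, 4.27 and 5.19 CPM in aPAPPA pools, against 0.372, 4.01, 1.63 and 3.33 CPM in control pools. The groups were separated by a narrow gap, and the difference was 2.10 (0.35 to 3.85) over 8 libraries and 1.17 (-0.09 to 2.44) over 6. Spry4, a feedback inhibitor of receptor tyrosine kinase signalling, had 9.89, 2.60, 3.37 and 4.33 CPM in aPAPPA pools, against 0, 1.73, 0 and 1.67 CPM in control pools. Its difference was 2.27 (0.21 to 4.32) over 8 libraries and 1.23 (-0.28 to 2.73) over 6. The separation of these genes of low level rests in part on few counts in the shallow control pool 5. There Hmox1 had 1 count, Jmjd4 3 and Spry4 0, and the upper 95% Poisson limits of 9.09, 14.3 and 6.02 CPM lie above the lowest aPAPPA values. These limits follow another rule than the floors given earlier and use TMM scaling. Slc4a1ap, which encodes kanadaptin, had 27.1, 36.2, 36.6 and 45.3 CPM in aPAPPA pools, against 13.0, 29.7, 19.6 and 24.2 CPM in control pools, a difference of 0.74 (0.07 to 1.41) over 8 and 0.63 (0.13 to 1.13) over 6.

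On the lower side stood Irs2, Ap4b1 at a level like that of Irs2, and 3 genes of lower level. Ap4b1, a subunit of the AP-4 vesicle adaptor, had 21.2, 23.7, 24.9 and 20.3 CPM in aPAPPA pools, against 30.9, 27.4, 40.8 and 38.4 CPM in control pools, without overlap, a difference of -0.59 (-1.08 to -0.11) over 8 libraries and -0.56 (-1.07 to -0.05) over 6. Cebpd, a transcription factor of myeloid and acute phase genes, had 1.41, 4.68, 4.04 and 3.61 CPM in aPAPPA pools, against 23.1, 5.09, 8.16 and 7.50 CPM in control pools. Its difference of -1.67 (-3.05 to -0.28) drew on control pool 1, and was -0.65 (-1.67 to 0.37) in pools 3 to 8. Fkbp1b, a regulator of calcium release channels, followed the same pattern, with 1.14 to 2.54 CPM in aPAPPA pools, against 16.7 CPM in control pool 1 and 2.60 to 3.33 CPM in the other control pools, and a difference of -0.90 (-2.30 to 0.51) over 6. Pros1, the anticoagulant protein S and a ligand of TAM receptors, had 1.88 to 3.11 CPM in aPAPPA pools and 4.22 to 9.17 CPM in control pools, a difference of -1.21 (-2.25 to -0.16) over 8 and -1.17 (-2.39 to 0.06) over 6.

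Immediate early genes, which are transcribed within minutes of a stimulus and include the AP-1 factors, lay mostly on the lower side of 0 in aPAPPA in both fits. Of 25 tested, 0 were called, 4 were higher and 21 lower in aPAPPA, and the median was -0.31 against 0.02 over all genes. In pools 3 to 8, 21 of 26 were lower with a median of -0.26, and 6 had an unadjusted p below 0.05, where 0.564% of all genes did. In the same 6 libraries 6 members were separated with aPAPPA below, where 1.99% of all genes were: Fos, Fosb, Klf4, Klf6, Zfp36 and Dusp1. Srf was separated the other way.

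Fos, an AP-1 subunit on chromosome 12 at 85473890 to 85477273, had 1948, 1164, 1500 and 1027 CPM in aPAPPA pools 2, 4, 6 and 8, against 2345, 1945, 1835 and 1599 CPM in control pools 1, 3, 5 and 7. Apart from aPAPPA pool 2, every aPAPPA value was under every control value. The difference was -0.45 (-1.04 to 0.13, adjusted p = 1, edgeR) over 8 libraries and -0.53 (-1.01 to -0.06, adjusted p = 1) over 6. Fosb, its paralog on chromosome 7 at 19302696 to 19310051, had 888, 631, 759 and 387 CPM in aPAPPA pools, against 1633, 1016, 856 and 999 CPM in control pools. Here too aPAPPA pool 2 alone overlapped the control range, and the difference was -0.76 (-1.46 to -0.05, adjusted p = 1) over 8 libraries and -0.68 (-1.23 to -0.13, adjusted p = 1) over 6. Dusp1, a phosphatase that switches off MAP kinases, on chromosome 17 at 26505590 to 26562128, had 352, 245, 337 and 293 CPM in aPAPPA pools, against 389, 368, 374 and 377 CPM in control pools. It was the single member separated over all 8 libraries, where 0.28% of all genes were, at -0.30 (-0.70 to 0.11), and -0.34 (-0.73 to 0.05) over 6.

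The 250 bases before the RefSeq transcription start (GRCm38.p6) were searched for the 6 members separated below in pools 3 to 8, and are shown for the 3 whose values are given by library. Capitals mark TGACG, the core of the cyclic AMP response element, found on either strand, and overlapping matches run together. Of the 6 windows, 4 hold it, 2 times in Fos, 1 time each in Fosb and Klf4 and 3 times in Dusp1, where 2 matches on opposite strands overlap. Those of Klf6 and Zfp36 do not hold it. Of all 32851 windows of this length in the table, 17.8% hold it. The other immediate early genes were not searched. Whether the 6 separated members hold it more often than the rest of their list was therefore not tested. Fos lies at chr12:85473640-85473889 on the plus strand, Fosb at chr7:19310046-19310295 and Dusp1 at chr17:26508473-26508722, both on the minus strand, and each is written 5′ to 3′ on the gene's own strand. A match is a description of the letters, with no reading of the factor.
Fos: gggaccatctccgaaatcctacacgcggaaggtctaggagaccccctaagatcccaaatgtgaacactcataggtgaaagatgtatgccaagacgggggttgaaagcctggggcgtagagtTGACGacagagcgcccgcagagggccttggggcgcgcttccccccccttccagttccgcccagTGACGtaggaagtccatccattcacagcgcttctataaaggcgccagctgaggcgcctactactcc
Fosb: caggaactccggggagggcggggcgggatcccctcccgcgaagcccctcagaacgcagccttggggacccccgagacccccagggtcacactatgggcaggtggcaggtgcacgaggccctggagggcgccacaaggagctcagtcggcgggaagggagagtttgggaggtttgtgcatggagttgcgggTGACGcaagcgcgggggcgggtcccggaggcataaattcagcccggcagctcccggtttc
Dusp1: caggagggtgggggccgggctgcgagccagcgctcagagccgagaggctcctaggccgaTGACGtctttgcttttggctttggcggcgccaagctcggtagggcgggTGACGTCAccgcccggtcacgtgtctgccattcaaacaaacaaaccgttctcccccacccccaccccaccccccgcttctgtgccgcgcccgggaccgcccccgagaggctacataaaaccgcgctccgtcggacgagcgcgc

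The same mouse pools were sampled in the other progenitors, except that HSC has no library of control pool 1. In HSC, GMP and MEP the 2 AP-1 genes had the same order of means as in CLP. In a fit of all 31 progenitor libraries of batch A, Fos averaged 1644 ± 396 CPM in aPAPPA and 2855 ± 597 CPM in control HSC (SD, n = 4 and 3). It averaged 855 ± 236 CPM in aPAPPA and 1202 ± 152 CPM in control GMP, and 1002 ± 240 CPM in aPAPPA and 1770 ± 326 CPM in control MEP (SD, n = 4 each). Fosb averaged 777 ± 160 CPM in aPAPPA and 1833 ± 750 CPM in control HSC, 657 ± 297 CPM in aPAPPA and 986 ± 276 CPM in control GMP, and 824 ± 252 CPM in aPAPPA and 1590 ± 262 CPM in control MEP. Neither gene was called in any of the 4 populations (adjusted p of 0.692 in HSC and 1 in the others, edgeR). The CLP difference minus the mean of the other 3 was 0.28 ± 0.25 for Fos and 0.21 ± 0.34 for Fosb (log2, SE, adjusted p = 1). The populations share mice, so these are not independent repeats. The HSC library of aPAPPA pool 6 held 107412 counts, the fewest of the 31, and its values are part of the HSC means.

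**Figure D4:**
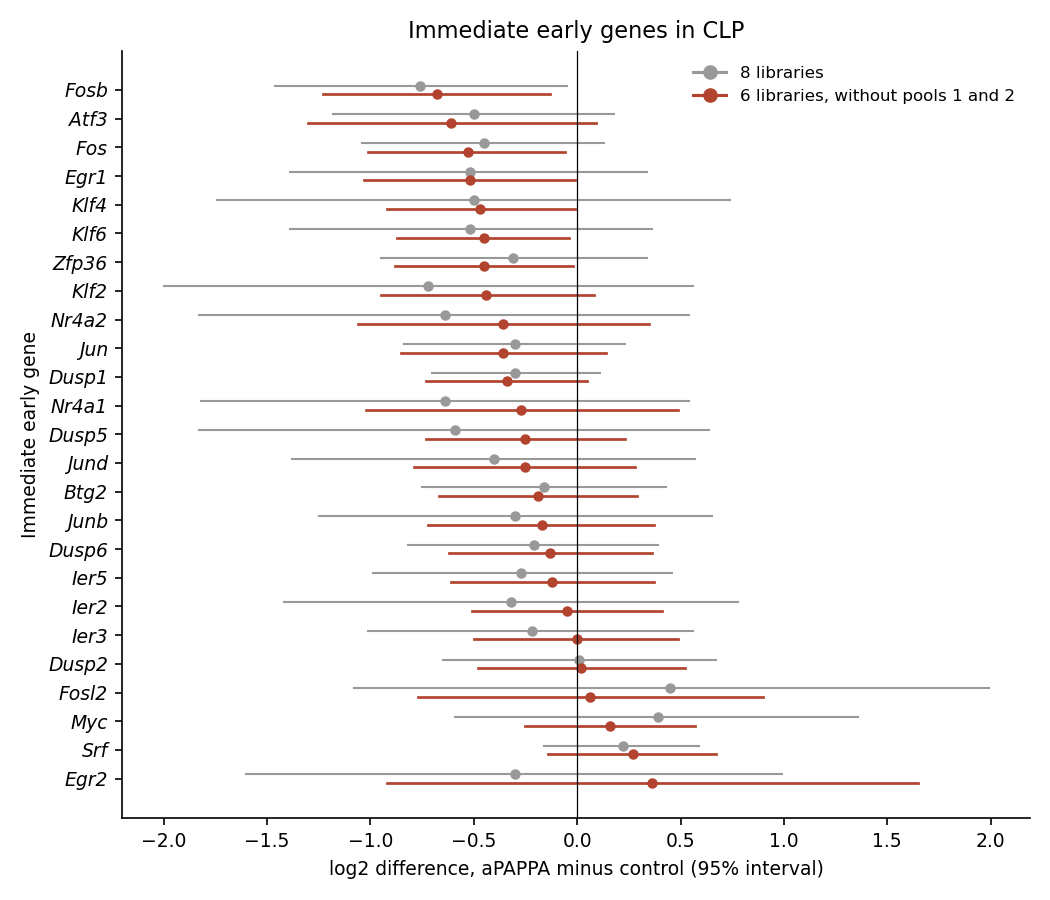
Log2 difference, aPAPPA minus control, with its 95% confidence interval for the 25 immediate early genes tested in both fits (grey, 8 libraries; red, the 6 libraries of pools 3 to 8). Most points lie left of 0, the intervals of Fosb, Fos, Egr1, Klf4, Klf6 and Zfp36 end below 0 with 6 libraries, and only that of Fosb does with 8.

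Genes of the heat shock and unfolded protein response gave 0 calls of 23, with 16 higher in aPAPPA and a median of 0.07. Hsph1, a co-chaperone of HSP70, had 84.2, 316, 293 and 277 CPM in aPAPPA pools 2, 4, 6 and 8, against 83.3, 173, 137 and 228 CPM in control pools 1, 3, 5 and 7. Pools 1 and 2 were the lowest of their groups, and the remaining aPAPPA libraries lay above the remaining control libraries. The difference was 0.65 (-0.33 to 1.63) over 8 libraries and 0.73 (0.28 to 1.17, adjusted p = 1) over 6. Hspa8, the constitutive HSP70, had 2603, 4881, 4907 and 6340 CPM in aPAPPA pools, against 1982, 3796, 3277 and 4613 CPM in control pools, a difference of 0.45 (-0.34 to 1.25) over 8 libraries and 0.48 (-0.04 to 1.00) over 6.

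In pools 3 to 8 the HSP40 gene Dnaja1 was separated as well, at 0.47 (0.03 to 0.90), and the inducible Hspa1a was separated the other way, at -0.43 (-0.89 to 0.04). The list thus held 3 members above and 1 below without overlap in those libraries, where 2.61% and 1.99% of all genes were. The chaperone genes Chordc1 and Hspa4l, among those of the smallest p in the 6 libraries, were named after their values were seen. Chordc1, an HSP90 partner, was at 0.55 (0.17 to 0.93) and Hspa4l, an HSP110 relative, at 0.73 (0.14 to 1.33), both with an adjusted p of 1. Of the chaperones of the endoplasmic reticulum, Hspa5 was at 0.19 (-0.30 to 0.69) and Pdia4 at 0.06 (-0.29 to 0.41).

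Most other lists lay near 0, and several moved with pools 1 and 2. Clustered histone genes, most of whose messages lack a poly(A) tail, had 15 of 18 members lower and a median of -0.47 over 8 libraries, but 12 of 19 lower and a median of -0.13 over 6. Hist2h2ac had 1.70, 1.35, 2.47 and 1.73 CPM in aPAPPA pools 2, 4, 6 and 8, against 10.0, 3.57, 4.89 and 1.67 CPM in control pools 1, 3, 5 and 7, where control pool 1 was the highest. Genes of NF-kB feedback had 16 of 20 lower and a median of -0.30 over 8 libraries, and 13 of 20 and -0.09 over 6. Rel, an NF-kB subunit of lymphocytes, had 37.9, 56.7, 59.7 and 29.3 CPM in aPAPPA pools, against 106, 57.3, 63.6 and 61.7 CPM in control pools, a difference of -0.66 (-1.34 to 0.02) and, over 6 libraries, of -0.31 (-0.89 to 0.28).

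MHC class II genes were higher for 9 of 10 in both fits, with medians of 0.29 over 8 libraries and 0.13 over 6. Their transactivator Ciita had 98.3, 15.7, 9.21 and 4.18 CPM in aPAPPA pools, against 23.1, 9.42, 8.16 and 3.33 CPM in control pools, highest in pools 2 and 1. The IL-7, FLT3 and KIT signalling list had a median of 0.02 with 0 of 19 called over 8 libraries, and of -0.02 over 6. Socs1, an inhibitor of cytokine receptors, was at 2.83 to 5.62 CPM in aPAPPA pools, against 29.0 CPM in control pool 1 and 1.67 to 9.79 CPM in the other control pools, a difference of -1.46 (-3.18 to 0.26) and, over 6 libraries, of -0.09 (-1.37 to 1.20).

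Among genes of growth and division the balance of signs depended on pools 1 and 2. Of all genes tested, 6666 of 12520 were higher in aPAPPA over 8 libraries and 7068 of 13128 over 6. S phase genes had 16 of 32 higher in aPAPPA and a median of 0.01 over 8 libraries, and 23 of 32 higher and a median of 0.06 over 6. G2/M genes had 19 of 30 higher and a median of 0.02 over 8, and 27 of 30 higher and a median of 0.08 over 6. In the 6 libraries 0 of them were called and 3 were separated above, where 2.61% of all genes were. Ribosomal protein genes summed to 70400, 32760, 42790 and 62590 CPM in aPAPPA pools 2, 4, 6 and 8, against 90010, 39770, 47880 and 37360 CPM in control pools 1, 3, 5 and 7. The sums were highest in pools 1, 2 and 8, the 3 libraries in which genes with under 1000 exonic bases read highest, and the part of that in these values was not tested. Ribosomal protein genes had a median of -0.04 with 14 of 32 higher over 8 libraries, and a median of 0.17 with 32 of 32 higher over 6. Nuclear respiratory chain genes were higher for 19 of 30 over 8 libraries and 29 of 30 over 6, with medians of 0.04 and 0.10. Their sums were 4806, 5683 and 7968 CPM in aPAPPA pools 4, 6 and 8. In control pools 3, 5 and 7 they were 5466, 6158 and 5791 CPM. Within pools 3 to 8, ribosomal protein and respiratory chain sums were highest in aPAPPA pool 8 and lowest in aPAPPA pool 4. The sign counts over 6 libraries thus do not show a shift shared by the aPAPPA pools. Mitochondrially encoded genes were lower for 11 of 15 over 8 libraries and 13 of 15 over 6, with medians of -0.14 and -0.29, and control pool 7 had the largest share of its counts on them, at 4.61%. Aurkb, the mitotic kinase, had 122, 154, 174 and 185 CPM in aPAPPA pools, against 54.6, 144, 129 and 142 CPM in control pools, a difference of 0.44 (-0.25 to 1.13) over 8 and 0.31 (-0.05 to 0.68) over 6, where it was separated above. P4ha1, a prolyl hydroxylase subunit induced by hypoxia, had 34.2, 42.5, 36.8 and 36.9 CPM in aPAPPA pools, against 30.1, 30.8, 29.4 and 24.2 CPM in control pools. It was separated above in all 8 libraries, where 0.391% of all genes were, at 0.39 (-0.03 to 0.82), and 0.46 (0.01 to 0.92) over 6.

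**Figure D5:**
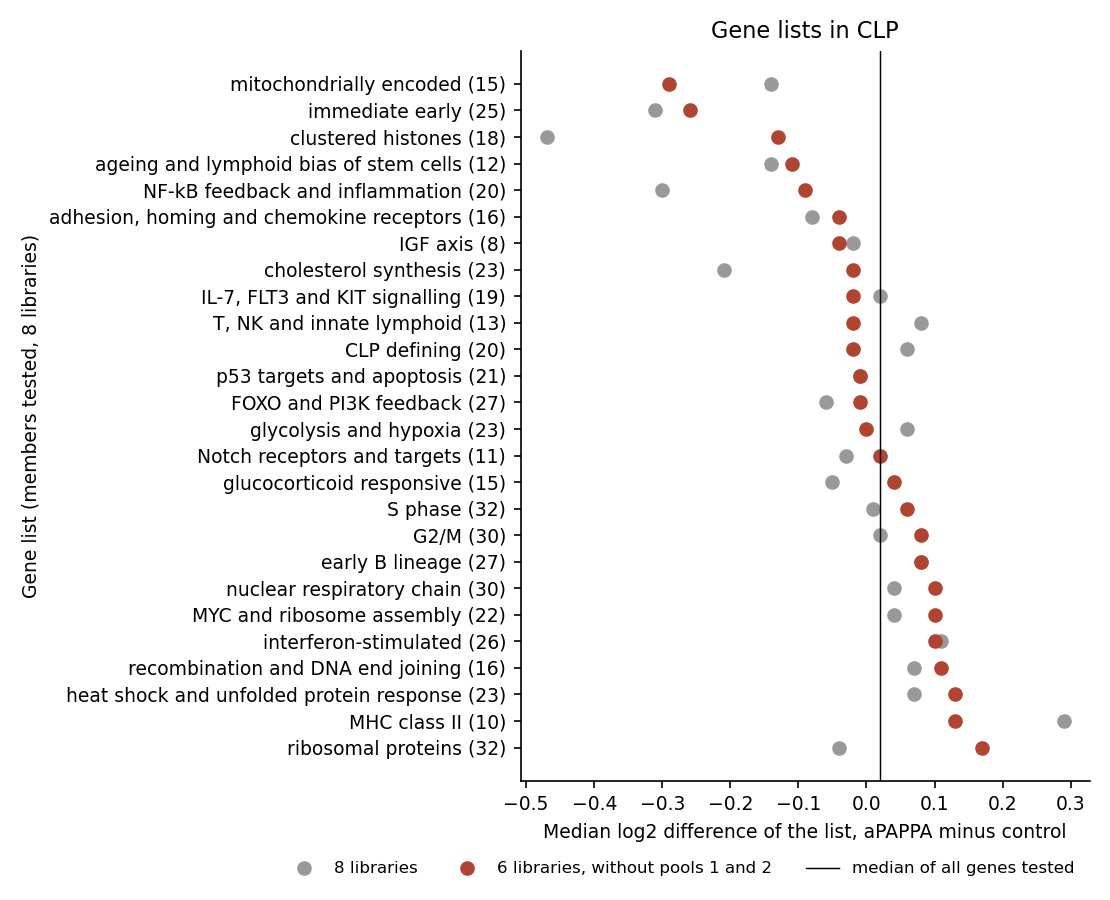
Median log2 difference, aPAPPA minus control, of the 26 gene lists that are neither markers of another cell type nor rRNA-like, with 8 libraries (grey) and with the 6 of pools 3 to 8 (red); the line marks the median of all genes, 0.02. The red points run between -0.29 and 0.17, and the lists furthest from their grey points are clustered histones, NF-kB feedback, ribosomal proteins and cholesterol synthesis.

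Whether CLP responded otherwise than the other progenitors was tested as the CLP treatment difference minus the mean of those in HSC, GMP and MEP. Of 18141 genes, 0 were called (0%) by edgeR's quasi-likelihood test, and 520 (2.87%) had an unadjusted p below 0.05. With the mouse pool as a replicate block in limma's voom fit, 0 were called and 361 had an unadjusted p below 0.05. Without the shallow HSC library of aPAPPA pool 6, edgeR called 0 and 539 had an unadjusted p below 0.05. The HSC values below include that library. Hmox1, Jmjd4 and Irs2 were among the genes with the smallest p in these same CLP libraries. That choice favours a larger difference in CLP than elsewhere, so their values do not show a response particular to CLP. For Hmox1, the aPAPPA and control means were 10.1 ± 6.07 and 2.36 ± 1.74 CPM in CLP, and 4.87 ± 1.92 and 1.23 ± 0.28 CPM in MEP (SD, n = 4 each), with log2 differences of 2.02 ± 0.55 and 1.99 ± 0.52 (SE). Its difference was 0.49 ± 0.57 in HSC and 0.13 ± 0.50 in GMP. Jmjd4 averaged 14.4 ± 2.32 CPM in aPAPPA and 6.90 ± 1.61 CPM in control CLP, and 20.9 ± 1.04 CPM in aPAPPA and 19.8 ± 0.86 CPM in control MEP. Its difference was 0.98 ± 0.23 in CLP, 0.09 ± 0.24 in HSC, 0.01 ± 0.20 in GMP and 0.08 ± 0.20 in MEP (SE). The CLP difference of Jmjd4 minus the mean of the others was 0.92 ± 0.26 (SE) and was not called. For Irs2 the difference was -0.58 ± 0.27 in CLP, -0.54 ± 0.30 in HSC, -0.18 ± 0.26 in GMP and 0.44 ± 0.26 in MEP, and the CLP difference minus the mean of the others was -0.49 ± 0.31 (SE, adjusted p = 1).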

How the data were processed

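Strand-specific libraries were made from total RNA of sorted cells, per the labels' protocols. Per the submitters' processing notes, reads went through FastQC 0.11.5 and the quantifier Salmon on mm10. Its version and its annotation are not given in the sources used. The values deposited by the authors are expected counts, already whole numbers, unscaled. The table repeated genes on several of its 7385832 lines, no repeat differed, and 56332 genes remained (47712 with Ensembl and 8620 with UCSC IDs). Counts that Salmon splits between near-identical copies are uncertain, as for histones, rRNA-like genes and paralogs.

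Genes passed filterByExpr, were scaled by TMM and tested with edgeR 4.0.16 (robust quasi-likelihood, R 4.3.3, Benjamini-Hochberg adjustment at 0.05), within CLP with no covariate. DESeq2 1.42.0 and limma 3.58.1 were alternatives. Intervals are 95% confidence intervals of the fit. The steps were tested on simulated data. Positions come from GENCODE M21 (GRCm38), promoters from RefSeq.

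Named genes were Pappa and the IGF axis, the 5 smallest p in each direction, CLP defining and recombination genes, 2 members with the smallest p of each other list, and 3 rRNA-like genes; other list members were named after their values were seen. The members and lists were chosen with earlier results of these data known. Libraries of 1 pool number share mice across populations, per the labels, and their within-pool correlation was 0.0108 over 31 libraries.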

Additional observations from a re-analysis of the deposited data

Results flagged for a closer look

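In 108 groups of 4 libraries whose values are printed, 22 values lay further from the others of their group than Dixon's 95% critical value allows. Chance flags about 1 in 20 independent groups. These groups share the same 8 libraries, and some items were chosen after their values were seen, so that rate is no measure for the 22. Of the 22, 8 were of aPAPPA pool 2 and 12 of control pool 1. High values in aPAPPA pool 2 were Ccr9 at 144 CPM, Pappa at 28.5 CPM, Id2 at 79.7 CPM, Ciita at 98.3 CPM and Il2ra, the IL-2 receptor alpha chain, at 67.5 CPM. The summed neutrophil list at 14970 CPM and the summed marrow stroma and endothelium list at 1333 CPM were high there too, and Hsph1 was low at 84.2 CPM.

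High values in control pool 1 were Ly6d at 1826 CPM, Ccr9 at 60.6 CPM, Cebpd at 23.1 CPM, Fkbp1b at 16.7 CPM, Rel at 106 CPM, Il2ra at 18.6 CPM, Klf4, a zinc finger factor of monocytes, at 461 CPM and the ribosomal protein gene Rps12 at 2948 CPM. The same library was high for the neutrophil list at 14310 CPM, the marrow stroma and endothelium list at 1158 CPM, the rRNA-like share at 7.79% and the share of counts on UCSC transcript IDs at 11.2%. In the remaining libraries, Il7r was high in aPAPPA pool 6 at 174 CPM and Pros1 low in aPAPPA pool 8 at 1.88 CPM. No gene's response in CLP differed from that in the other progenitors beyond the threshold.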

How the results depend on the processing

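The count of genes called for the antibody was 0 in 18 of 19 alternatives (other size factors, DESeq2, voom, no low-count filter, rRNA-like genes left out or their share as a covariate, a joint fit, Ensembl genes alone, and libraries left out); the range without any single library was 0 to 0. Without pools 1, 2, 7 and 8, an alternative chosen after seeing the data, 1 gene was called: Gm12671, with 280 and 101 counts in aPAPPA pools 4 and 6 and 5 and 0 in control pools 3 and 5, but 0 in aPAPPA pools 2 and 8 and 219 in control pool 7. The contrast of control CLP with other control progenitors called 2262 to 5052 genes with 1 control pool left out, the lowest without pool 1. With the mouse pool as a replicate block that contrast called 3186 genes and the difference in response called 0. No paired analysis was possible within CLP because aPAPPA and control pools have different numbers and no label ties a pool of one group to a pool of the other. The cause of these changes was not tested.

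Of 1802 values of 95 named genes under the alternatives, 1673 lay within 1 standard error of the reported value, 129 moved further, and 176 took the opposite sign, in 53 genes, none of them called. The rRNA-like difference of -1.33 percentage points was 0.509 without control pool 1, and -3.47 with 4 further rRNA-like genes added. The 2 shallow control pools limit genes of low level.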

Other observations

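Several gene groups not described above also gave 0 calls between aPAPPA and control CLP. Interferon-stimulated genes were higher in aPAPPA for 15 of 26 over 8 libraries and 20 of 29 over the 6 of pools 3 to 8, with medians of 0.11 and 0.10. Among them the antiviral synthetase gene Oas1a had 13.8, 18.3, 22.0 and 37.2 CPM in aPAPPA pools 2, 4, 6 and 8, against 8.92, 16.5, 19.6 and 14.2 CPM in control pools 1, 3, 5 and 7. The ranges of Oas1a overlapped, and the log2 difference was 0.65 (95% interval -0.21 to 1.51). Cholesterol synthesis genes were lower for 16 of 23 over 8 libraries and 12 of 23 over 6, with medians of -0.21 and -0.02. Glucocorticoid-responsive genes had a median of -0.05, p53 and apoptosis genes -0.01, glycolysis and hypoxia genes 0.06 and Notch genes -0.03, all over 8 libraries.

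Markers of further cell types were also high in aPAPPA pool 2 and control pool 1. Erythroid and MEP genes summed to 2583 CPM in aPAPPA pool 2 and 855 to 1355 CPM in the other aPAPPA pools, and to 2223 CPM in control pool 1 and 550 to 1620 CPM in the other control pools. Mast cell and basophil genes summed to 3169 CPM in aPAPPA pool 2 and 395 to 805 CPM in the other aPAPPA pools, and to 4945 CPM in control pool 1 and 537 to 618 CPM in the other control pools. Plasma cell genes, largely immunoglobulin chains, ranged from 1120 to 9614 CPM in aPAPPA and from 910 to 6828 CPM in control, and Ighm, the IgM heavy chain, from 1672 to 6346 CPM in aPAPPA and from 1317 to 9130 CPM in control. Control pool 5 was the highest library for Ighm and aPAPPA pool 2 the next. Megakaryocyte and platelet genes were lower in aPAPPA for 9 of 11 over 8 libraries and 13 of 15 over 6, with medians of -0.31 and -0.24 and 0 called.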
